A study of Mus musculus with 4 samples.

Results

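The mitochondrial ribosomal proteins are the nuclear-encoded proteins of the ribosome that works inside mitochondria. They were taken as every gene whose name in the array annotation begins with Mrpl (large subunit) or Mrps (small subunit) followed by a digit. This gave 75 genes with 124 probes, 46 Mrpl and 29 Mrps, of 27827 gene names on the array. The cytosolic ribosomal proteins, named Rpl or Rps and a digit, were the comparison list, with 79 genes after the ribosomal protein kinases and binding proteins that share those letters were left out. Genes named otherwise in the annotation that are now called Mrpl42, Mrpl57 and Mrpl58 were not counted as members.

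Mitochondria keep their own small genome and translate its few messages, all for proteins of the respiratory chain and ATP synthase, on a ribosome of their own. Its RNAs come from the mitochondrial genome, whereas its proteins are made in the cytosol and imported. Most bacterial ribosomal proteins have a counterpart in it, and many further proteins are specific to mitochondria. In the intestine, crypt base stem cells and their dividing daughters lie beside secretory cells that make mucus.

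Both populations were sorted from colonic crypts of adult Lgr5_EGFP-ires-CreERT2 knock-in mice, in which GFP is made from the Lgr5 locus, a receptor gene of crypt base stem cells. One population was GFP positive (Lgr5-GFP), and the other was CD24 hi, sorted with a PE-conjugated antibody to the surface protein CD24 and described by the submitters as part of the goblet cells. The colon was normal, and no treatment is named in the labels. RNA of both was hybridised together on 4 2-colour arrays, as 2 replicates with a first array (Lgr5-GFP in Cy3) and a dye swap (Lgr5-GFP in Cy5) each. No label ties a replicate to an animal, so p-values describe the spread of these RNA samples alone and that spread may be technical. Replicate and slide cannot be told apart, and the number of arrays limits the precision.

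Every value below is a log2 ratio, RNA labelled Lgr5-GFP divided by RNA labelled CD24hi, and values on arrays are given in the order first array and dye swap of replicate 1, then first array and dye swap of replicate 2. The genes behind both sorts went against these labels. Lgr5 itself was lower in the RNA labelled Lgr5-GFP, at -3.41 ± 0.29 (SD, n = 2 replicates, well above background in that RNA on 2 of 3 arrays), and Cd24a was higher, at 2.12 ± 0.30. The direction is therefore that of the labels, and if the labels were exchanged every "lower" below would read "higher". On the dye swap of replicate 1 the scanner software had marked 75.3% of gene spots as outliers, and 25 of the 75 members had no value there. For those members replicate 1 rests on its first array. In RNA from sorted cells, fewer cells of a type and less RNA per cell cannot be told apart.

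All 75 members were well above background in both populations on every array with a value, and all were tested. In a fit with limma over all 14616 genes tested, with Benjamini-Hochberg adjustment and calls at an adjusted p under 0.05, 26 members were called lower, which is 34.7% of them, beside 25.7% of all genes. Another 4 members were called higher, which is 5.33%, beside 22.0% of all genes. The other 45 members passed the threshold in neither direction, so the call share of the family, 30 of 75, lies beside a background of 47.7% of genes called in either direction. Without the dye swap of replicate 1 the counts were 30 lower and 7 higher, beside 30.7% and 27.0% of all genes. Without the first array of replicate 1 they were 2 lower (Mrpl50 and Mrpl45) and 0 higher among the 58 members still tested, beside 7.98% and 8.3% of the genes still tested. When non-uniform local backgrounds were kept in the background fit, limma called 0 members and 0 of all genes, with 17 members and 5169 genes at an unadjusted p under 0.05.

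The shift of the family was small. Its median was -0.25 (1.19-fold), with quartiles at -0.50 and 0.02, while the median of all genes tested was -0.07. It was -0.32 in replicate 1 and -0.12 in replicate 2, and without replicate 1, when all genes were filtered and collapsed anew, it was -0.13, with that of all genes at -0.06. Of the 75 members, 56 lay below 0 and 46 had the same sign on every array with a value. Only 3 members were lower by more than a doubling, and the largest difference was 2.29-fold. With each array centred on its median in place of loess, the median of all genes was -0.25 and that of the members -0.45, and 38 members were then called lower and 1 higher, beside 36.5% and 14.9% of all genes. That centring also moved the share of all calls that were lower from 53.9% to 70.9%.

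**Figure D1:**
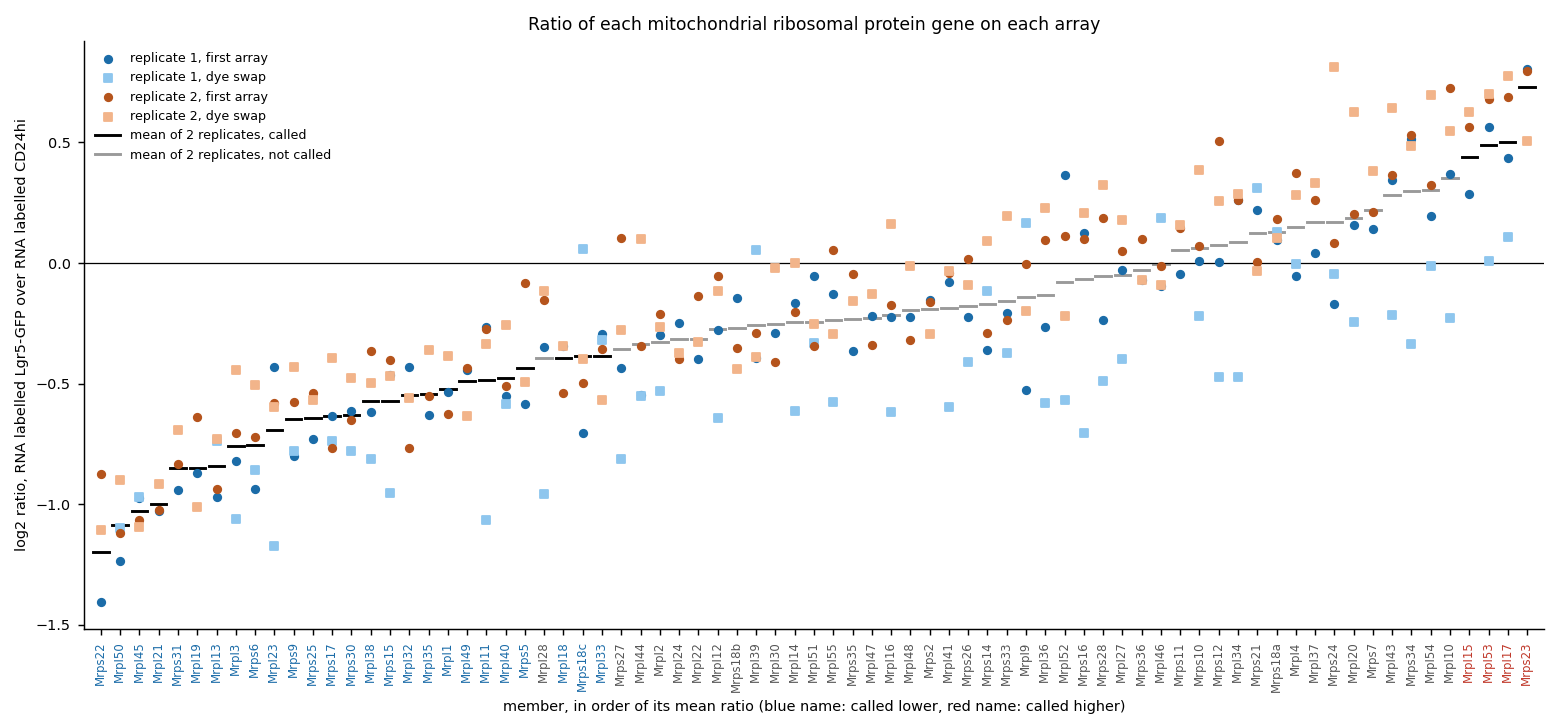
The plot shows the log2 ratio of Lgr5-GFP over CD24hi, as labelled (y axis), of the 75 members (x axis, in order of the mean), with 1 point per array and a bar for the mean of the 2 replicates. Means run from -1.20 for Mrps22 to 0.73 for Mrps23, and the dye swap of replicate 1 (pale blue squares) is the lowest point in 33 of the 50 members that have all 4 values.

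Calls were found in both subunits. Among the 46 Mrpl genes 16 were called lower and 3 higher, with a median of -0.25. Among the 29 Mrps genes 10 were called lower and 1 higher, with a median of -0.18. Mrps30 and Mrps18a carry a small-subunit name but sit in the large subunit. Counted by structure, 17 of 48 large-subunit genes were called lower and 3 higher, against 9 and 1 of 27 small-subunit genes. The same count was made by origin. Of 47 proteins with a bacterial counterpart, 17 were called lower and 2 higher (median -0.25), and of 28 proteins specific to mitochondria, 9 were called lower and 2 higher (median -0.23). The differences between these classes were not tested.

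Of the small subunit, Mrps22, which is specific to mitochondria and is mutated in an inherited human mitochondrial disease, had the lowest ratio of the family. It was -1.40 on the first array of replicate 1, had no value on its dye swap, and was -0.88 and -1.11 on the arrays of replicate 2. All values lay well below 0, and the mean of -1.20 ± 0.29 (SD, n = 2) was called lower (limma adjusted p = 0.0027). Its probe lies at chr9:98489251-98489310 on the minus strand of mm9. Mrps31 was -0.94, -0.83 and -0.69 on the arrays with a value, and its mean of -0.85 ± 0.12 was called lower (limma adjusted p = 0.0043). Mrps6, the counterpart of bacterial S6, was -0.94, -0.86, -0.72 and -0.51, with a mean of -0.76 ± 0.20 and a limma adjusted p of 0.0076. With dye swaps only, and without replicate 2, another probe stood for Mrps6. That probe gave -0.16 with dye swaps only, not called (limma adjusted p = 0.857), and -0.28 without replicate 2. Over the 4 arrays that other probe read -0.74, 0.19, -0.54 and -0.51. With the brightest probe of each of these genes over all arrays, replicate 1 was lower than replicate 2 and no array reached 0.

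Mrps9 (-0.65 ± 0.20), Mrps25 (-0.64 ± 0.13), Mrps17 (-0.63 ± 0.07) and Mrps15 (-0.57 ± 0.19) were also called lower. Mrps30, a large-subunit protein in spite of its name, was -0.61, -0.78, -0.65 and -0.48, with a mean of -0.63 ± 0.09 and a limma adjusted p of 0.0103. The S18 family has a member in the large subunit, Mrps18a, and others in the small subunit, and its genes were called differently. Mrps18c was called lower at -0.39 ± 0.09 although its dye swap of replicate 1 read 0.06, which made it the only called member without a single sign. Without the first array of replicate 1 it was -0.20 (limma adjusted p = 0.824). Mrps18b was -0.27 ± 0.17 and Mrps18a 0.13 ± 0.02, neither called. Mrps12, a protein of the decoding centre, was 0.07 ± 0.43 and ranged from -0.47 to 0.51 over the arrays.

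Of the large subunit, Mrpl50 was -1.23, -1.10, -1.12 and -0.90, with a mean of -1.09 ± 0.11 and a limma adjusted p of 0.0021. Mrpl45, which lines the exit of the tunnel and helps to hold the ribosome at the inner membrane, was -0.97, -0.97, -1.07 and -1.09. Its 4 arrays lay close together, the mean was -1.03 ± 0.08, and the limma adjusted p was 0.0023. Mrpl21 was -1.03, -1.02 and -0.92 on the arrays with a value, with a mean of -0.999 ± 0.040 (limma adjusted p = 0.0024). In these 3 genes every array with a value lay between -1.23 and -0.90.

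Mrpl19 (-0.85 ± 0.03) and Mrpl13 (-0.84 ± 0.01) followed. Mrpl3, near the peptidyl transferase centre and mutated in an inherited cardiomyopathy, was -0.82, -1.06, -0.71 and -0.44, with a mean of -0.76 ± 0.26 and a limma adjusted p of 0.0094. Mrpl23, one of the proteins around the tunnel exit, was -0.43, -1.17, -0.58 and -0.59, so that its mean of -0.69 ± 0.15 leans on the dye swap of replicate 1. Mrpl11, at the base of the stalk that recruits elongation factors, was called at -0.48 ± 0.26, but 1 of its 4 arrays, the same dye swap, read -1.07 while the others lay between -0.34 and -0.26. Without that array Mrpl11 was -0.28 and no longer called (limma adjusted p = 0.0584). Mrpl12, the stalk protein itself, was -0.27 ± 0.27 and not called.

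The remaining large-subunit genes called lower lay between -0.38 and -0.57. They were Mrpl38, Mrpl32, Mrpl35, Mrpl1, Mrpl49, Mrpl40, Mrpl18 and Mrpl33, and in the small subunit Mrps5 fell in the same range at -0.44 ± 0.21. Without the first array of replicate 1, the probe used for Mrpl49 had no value in that replicate. Another probe then stood for Mrpl49, at -0.25 and not called. Mrpl38, Mrpl40 and Mrpl18 belong to the central protuberance, the crown of the large subunit. The threshold ran through a dense part of the family. Just inside it lay Mrps18c and Mrpl33 (limma adjusted p of 0.0476 and 0.04996, mean ratios of -0.39 and -0.38), and just outside it Mrpl2 and Mrpl24 (0.0822 and 0.0851, mean ratios of -0.33 and -0.32).

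Only 4 members were called higher in the RNA labelled Lgr5-GFP. Mrps23 had the highest ratio of the family, at 0.81, 0.80 and 0.51 on the arrays with a value, with a mean of 0.73 ± 0.11 (1.66-fold, limma adjusted p = 0.0066). Its other probe was called higher too, at 0.55 ± 0.13. Without the first array of replicate 1, the brighter probe had no value in that replicate. The other probe then stood for Mrps23, at 0.40 and not called (limma adjusted p = 0.561). Mrpl17 was 0.44, 0.11, 0.69 and 0.78 (mean 0.50 ± 0.33), and Mrpl53, specific to mitochondria, was 0.56, 0.01, 0.68 and 0.70 (mean 0.49 ± 0.29). Both had 1 array near 0, the dye swap of replicate 1, and both had adjusted p-values near the threshold in the limma fit, 0.0443 and 0.0417. The fourth, Mrpl15, depended on the probe, as described further on.

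Among members not called, the largest ratios were those of Mrpl28 (-0.39 ± 0.37), Mrps27 (-0.36 ± 0.38), Mrpl10 (0.35 ± 0.40) and Mrpl44 (-0.33 ± 0.30). In each the SD was close to the ratio itself or above it. Without the dye swap of replicate 1, Mrpl10 was 0.50 and called higher (limma adjusted p = 0.0101). Mrpl10 anchors the stalk of Mrpl12, and Mrps27 binds RNA in the small subunit. Mrpl46, Mrps36, Mrpl27, Mrps11, Mrps28 and Mrps10 lay nearest to 0, between -0.06 and 0.06. Mrps36 was later assigned to the 2-oxoglutarate dehydrogenase complex of the citric acid cycle. Mrps28 had the widest spread of the family, with an SD of 0.44, and the median SD over all members was 0.17.

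The cytosolic ribosome stood further from 0. Of its 77 genes tested, 65 were called lower (84.4%, beside 25.7% of all genes) and 0 higher (beside 22.0%), with a median of -0.86 (1.81-fold). At an unadjusted p under 0.05 the same limma fit gave 67 lower and 0 higher. Rps9 (-1.50 ± 0.003), Rpl14 (-1.49 ± 0.28) and Rps19 (-1.47 ± 0.07) were lowest. The small SD of Rps9 is that of its replicate means, while its arrays read -1.10, -1.90, -1.44 and -1.56. Rpl21 (0.19 ± 0.47), Rpl38 (0.00 ± 0.19) and Rpl36al (-0.12 ± 0.01) were highest and not called. Only 4 of the 75 mitochondrial members, Mrps22, Mrpl50, Mrpl45 and Mrpl21, lay below the cytosolic median, and 6 of the 77 cytosolic genes lay above the mitochondrial median. With kinases and binding proteins of the same letters included, the cytosolic median was -0.78.

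**Figure D2:**
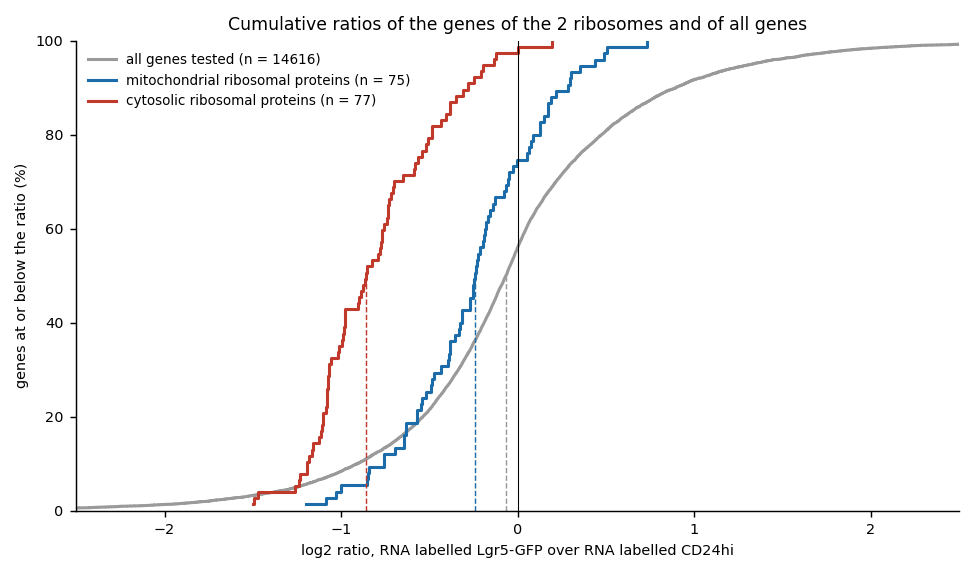
The plot shows, for all 14616 genes tested, the 75 mitochondrial and the 77 cytosolic ribosomal protein genes, the percentage of genes (y axis) at or below each log2 ratio of Lgr5-GFP over CD24hi, as labelled (x axis, drawn from -2.5 to 2.5), with dashed lines at the medians. The mitochondrial curve (median -0.25) lies between that of all genes (-0.07) and the cytosolic one (-0.86), and it is steeper than that of all genes.

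The gap between both ribosomes was seen on every array but varied in size. The median of the mitochondrial members minus that of the cytosolic genes was 0.74 and 0.23 on the arrays of replicate 1 and 0.70 and 0.57 on those of replicate 2. The small value came from the dye swap of replicate 1, where the mitochondrial median was -0.51 over 50 members, against -0.26, -0.17 and -0.16 on the other arrays. Per replicate the gap was 0.55 and 0.69. With non-uniform backgrounds kept in the background fit it was -0.05, and in the scanner software's processed signals it was 0.39. Over the members, the ratios of 2 arrays correlated with r between 0.56 and 0.90 (a correlation across genes of the family, not across replicates), the lower values being those with the dye swap of replicate 1. Brightness and ratio were nearly unrelated over the 75 members (r = 0.08, rho = 0.05). Most cytosolic genes were brighter than the brightest of these members, Mrpl28, and the part of brightness in the gap was not tested.

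**Figure D3:**
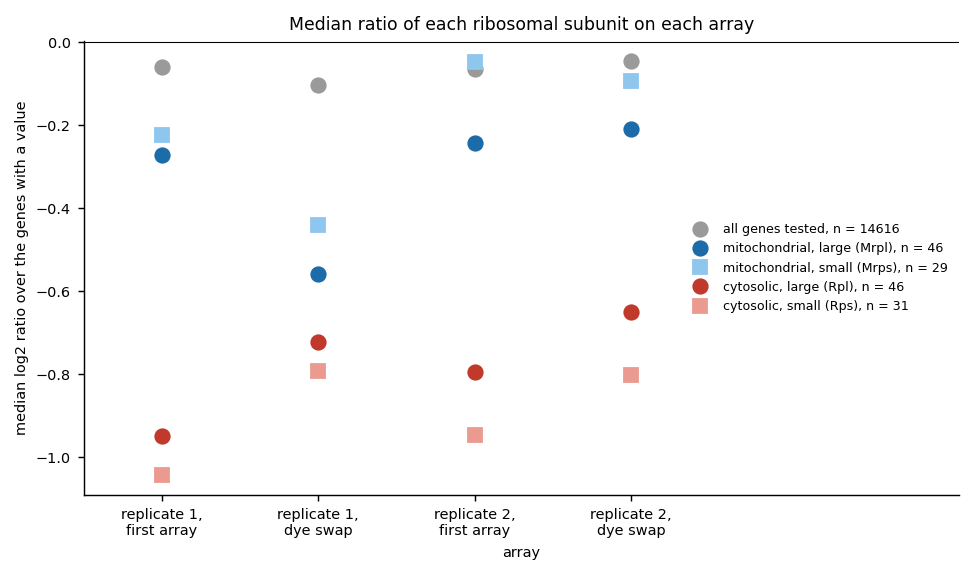
The plot shows the median log2 ratio (y axis) of all genes tested and of the large and small subunits of both ribosomes on each of the 4 arrays (x axis). On every array both mitochondrial medians lie above both cytosolic ones, and the mitochondrial medians are lowest on the dye swap of replicate 1.

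Several members had more than 1 probe, which gave a measure of how well a single probe stands for its gene. Of 27 members with at least 2 probes kept, 18 had all probes on the same side of 0 and 9 did not. The 37 probes other than the brightest gave 11 calls lower, 1 higher and 25 uncalled, with a median of -0.28. Of 14 members called lower that had several kept probes, 3 had all of them called lower. For Mrpl50 the second probe was called lower at -0.41 ± 0.15, less than the brightest one (-1.09). For Mrpl45 the second probe read -0.35 ± 0.13 and was not called. For Mrpl3 the other probes read -0.65 ± 0.15 (called lower) and -0.28 ± 0.03, and for Mrpl38 they read 0.05 ± 0.26 and -0.20 ± 0.02, neither called.

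Mrpl15 was the only member whose probes were called in opposite directions. The probe that stood for the gene was designed on a cDNA clone and the other on the RefSeq transcript. Brightness was averaged over the arrays with a value, and the clone probe had none on the dye swap of replicate 1. With that array left out, the RefSeq probe was the brighter one, and Mrpl15 was -0.52 and called lower (limma adjusted p = 0.0055). The clone probe and the RefSeq probe lie apart in the same gene, at chr1:4771675-4771734 and chr1:4767667-4767726 on the minus strand of mm9. Whether each lies in an exon, an intron or an untranslated region of the annotated gene was not analysed here. The first 30 of the 60 bases of each, as the array files give them, show that they read different parts of the gene.

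Mrpl15 probe on the cDNA clone: cacgatggtactcaaaactggaactatagt

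Mrpl15 probe on the RefSeq transcript: gctgatacttttcaagcaaaaattaatatt

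The first read 0.28, 0.56 and 0.63 on the arrays with a value, for a mean of 0.44 ± 0.22 that was called higher (limma adjusted p = 0.0451). The second read -0.53, -0.63, -0.57 and -0.46, for a mean of -0.55 ± 0.05 that was called lower in the same fit run over probes (limma adjusted p = 0.0143). The ranges of both probes did not overlap, so no single direction can be given for Mrpl15. Mrps7 and Mrpl52 also had a bright uncalled probe (0.22 ± 0.11 and -0.08 ± 0.03) beside a dimmer one called lower (-0.45 ± 0.001 and -0.47 ± 0.26). The dimmer Mrps7 probe had a value on only 2 arrays, the first array of replicate 1 and the dye swap of replicate 2. The small SD of the bright Mrpl52 probe is that of its replicate means, while its arrays read 0.36, -0.57, 0.11 and -0.22.

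**Figure D4:**
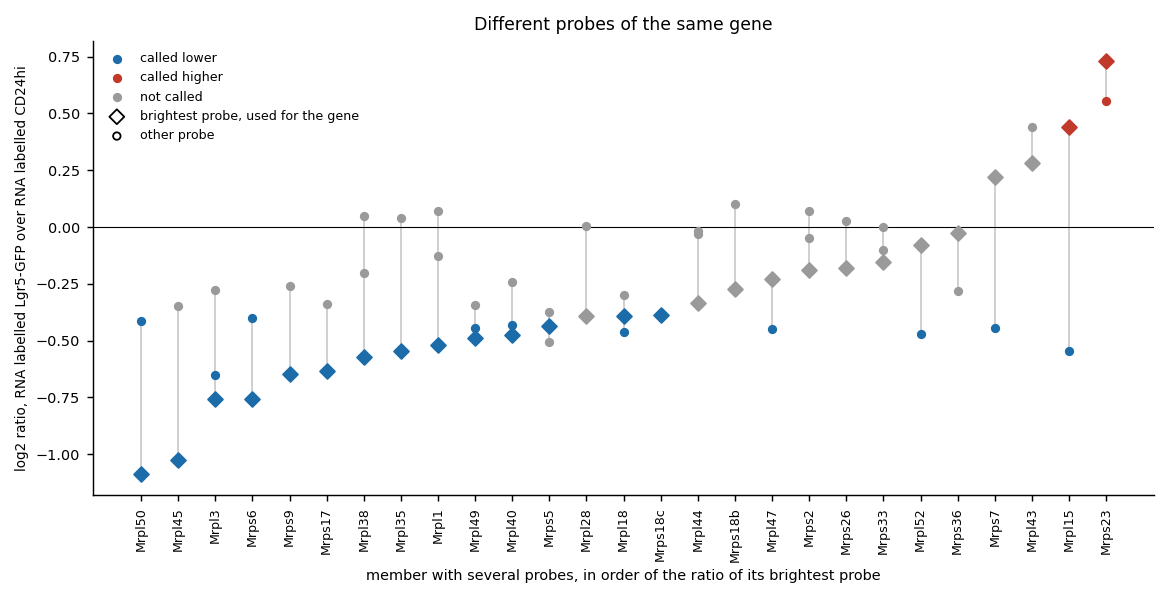
The plot shows the mean log2 ratio (y axis) of every kept probe of the 27 members with several kept probes (x axis), with a diamond for the brightest probe, which stands for the gene, and colours for the call. Mrpl15 is the only gene with a red and a blue point, and Mrps23 the only one with 2 probes called higher.

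The promoters of these genes are of interest because many nuclear genes of mitochondria are bound by NRF1 and by ETS factors such as the GA-binding protein. RefSeq (GRCm38.p6) gave windows of 250 bases before to 50 bases after the start for 66 of the 75 members, in 72 windows. The ETS core CCGGAAG, searched on both strands, was found in 24 windows (33.3%), beside 8.86% of all 32851 windows and 16.0% of the windows of all genes tested here. The cytosolic ribosomal protein genes held it in 33.8% of their windows. Among the members it was found in 6 of 23 genes called lower, 3 of 3 called higher with a window and 15 of 40 not called. By gene this was 36.4% of members with a window, beside 18.6% of all genes tested with one. The NRF1 motif was found in 3 windows (4.17%, beside 0.971% of all and 1.98% of those of genes tested), those of Mrpl32, Mrpl39 and Mrpl9. The E-box CACGTG, the same on both strands, was in 7 windows (9.72%, beside 7.15% of all and 9.79% of those of genes tested). Of these windows, 3 were alternative starts of Mrpl2 that hold the same site. By gene the E-box was in 5 of 66 members (7.58%), beside 8.09% of all genes and 11.6% of genes tested. A match is a description of the letters and not evidence of binding.

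The stretches from 90 bases before to 30 bases after the start are printed for 3 of the members with the lowest ratios and 2 of those called higher, since each holds the ETS core, with capitals marking the core in either orientation.

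Mrps22 chr9:98601650-98601769, minus strand: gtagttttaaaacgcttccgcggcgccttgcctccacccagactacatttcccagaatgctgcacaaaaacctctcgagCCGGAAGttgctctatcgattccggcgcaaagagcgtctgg

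Mrpl21 chr19:3282952-3283071, plus strand: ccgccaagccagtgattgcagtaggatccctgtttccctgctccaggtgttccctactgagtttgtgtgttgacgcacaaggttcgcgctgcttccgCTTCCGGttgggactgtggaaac

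Mrpl3 chr9:105053178-105053297, plus strand: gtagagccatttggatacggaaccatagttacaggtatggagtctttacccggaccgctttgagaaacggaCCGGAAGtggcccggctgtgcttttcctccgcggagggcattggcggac

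Mrpl53 chr6:83109018-83109137, plus strand: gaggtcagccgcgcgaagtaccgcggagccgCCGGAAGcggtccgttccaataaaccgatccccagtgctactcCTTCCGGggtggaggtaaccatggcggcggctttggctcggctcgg

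Mrps23 chr11:88204298-88204417, plus strand: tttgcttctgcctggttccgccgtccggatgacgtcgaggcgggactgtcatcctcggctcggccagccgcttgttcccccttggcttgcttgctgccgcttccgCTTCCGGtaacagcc

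The core began 11 bases before the start in Mrps22 (ratio -1.20), 19 bases before it in Mrpl3 (-0.76) and 59 and 16 bases before it in Mrpl53 (0.49). In Mrpl21 (-0.999) and Mrps23 (0.73) it lay just after the start. These genes were picked because they hold the core, so its presence in them is no finding.

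Other proteins of mitochondrial translation were placed beside the members. Of 12 translation factors tested, 8 were called lower and 1 higher, with a median of -0.56. Tufm, the elongation factor that brings the aminoacylated tRNA, was -1.07, -1.59, -0.57 and -0.77 (mean -0.999 ± 0.462, limma adjusted p = 0.0087), and its exchange factor Tsfm was -0.98 ± 0.06. Lrpprc, which stabilises mitochondrial messages, was -1.18 ± 0.03. The initiation factor Mtif3 went the other way at 0.74 ± 0.41 and was called higher, and the G factors Gfm1 (0.12 ± 0.24) and Gfm2 (0.18 ± 0.08) were not called. Of the 7 tested proteins of the mitochondrial ribosome that carry other names, 1 was called lower, Ptcd3 of the small subunit at -1.50 ± 0.03, while Dap3 (-0.41 ± 0.39) and the membrane insertase Oxa1l (0.00 ± 0.02) were not called.

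Of 18 factors tested that assemble the ribosome or modify its RNA, 9 were called lower and 2 higher, with a median of -0.25. The rRNA methyltransferase Mrm1 was -1.15 ± 0.01 and Fastkd2 -1.01 ± 0.36, while the GTPase Mtg1 was 0.58 ± 0.17 and the pseudouridine synthase family member Rpusd3 0.57 ± 0.08. Genes of mitochondrial DNA maintenance and transcription gave 3 lower and 0 higher of 9, with the single-strand binding protein Ssbp1 at -1.43 ± 0.05 and the packaging and transcription factor Tfam at -1.02 ± 0.14. Import, chaperone and mass genes gave 9 lower and 0 higher of 16 (median -0.49), with the chaperonins Hspd1 (-1.81 ± 0.12) and Hspe1 (-1.80 ± 0.32) lowest and citrate synthase Cs at -0.39 ± 0.17, not called. Each of these counts stands beside the same background of 25.7% lower and 22.0% higher, and each count of 0 in the lists of this kind was also 0 at an unadjusted p under 0.05 in the limma fit.

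The mitochondrial ribosome makes some subunits of the respiratory chain and ATP synthase. Nuclear genes for these complexes were taken by name alone, as names starting with Nduf, Sdha to Sdhd, Uqcr, Cox4 to Cox8 or Atp5. They had a median of -0.12. Of 82 tested, 7 were called lower and 7 higher (8.54% each, beside 25.7% of all genes lower and 22.0% higher). The same shares of all genes stand beside the counts by complex. The complex I assembly factor Ndufaf2 was lowest at -1.23 ± 0.01 and the complex IV subunit Cox8a highest at 0.87 ± 0.12. Whether each name belongs to its complex was not checked, and the only Atp5 name called higher was Atp5sl (0.41 ± 0.13). By complex, the counts lower and higher were 4 and 1 of 39 for complex I, 0 and 0 of 4 for complex II, 1 and 2 of 7 for complex III, 1 and 3 of 15 for complex IV, and 1 and 1 of 17 for ATP synthase. Of the messages that the ribosome itself translates, CYTB was -0.57 and -0.85 on the arrays of replicate 1 and -1.50 and -1.41 on those of replicate 2, called lower at -1.08 ± 0.53 (limma adjusted p = 0.0087). COX2 was -0.25, 0.29, -0.86 and -0.89 and was not called. For both the replicates did not overlap.

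**Figure D5:**
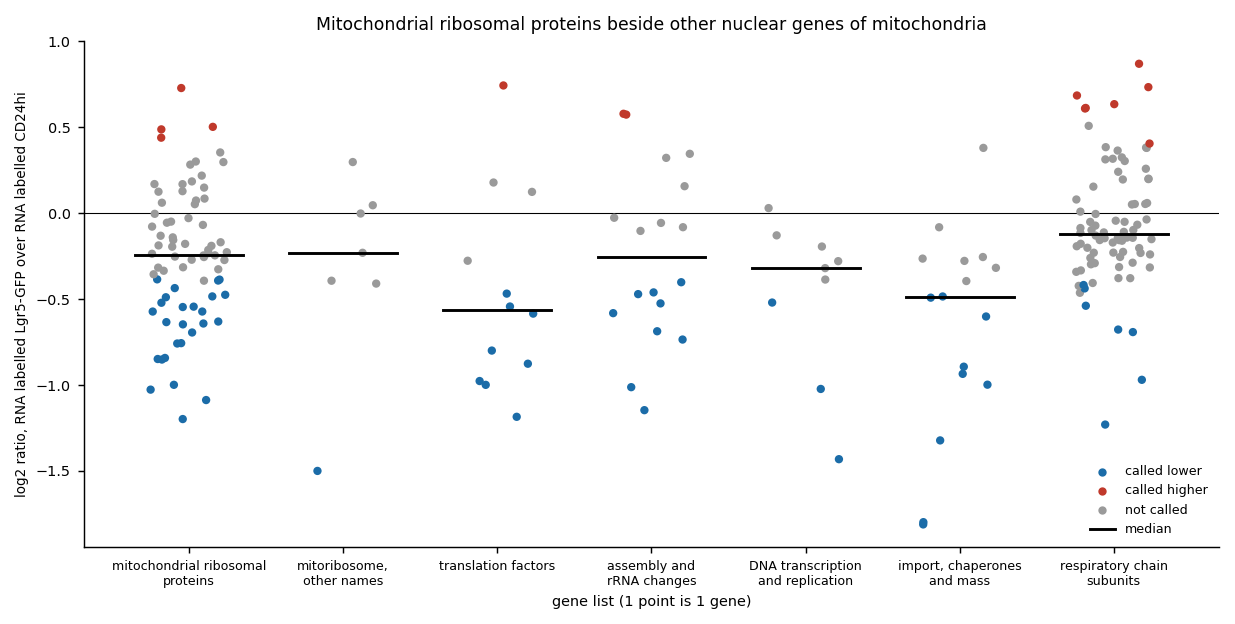
The plot shows the mean log2 ratio of Lgr5-GFP over CD24hi, as labelled (y axis), of each gene in 7 lists of nuclear genes of mitochondria (x axis), 1 point per gene, coloured by call, with a bar at the median. Medians run from -0.56 for translation factors to -0.12 for the respiratory chain, and that of the 75 ribosomal proteins is -0.25.

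Of 9 regulators of such genes, 3 were called lower (33.3%, beside 25.7% of all genes) and 0 higher. Myc, a regulator of ribosome production and growth, was -2.43, -2.35 and -2.36 on the arrays with a value (mean -2.39 ± 0.05, limma adjusted p = 6.8e-04). Gabpa, the ETS subunit of the GA-binding protein, was -0.65 ± 0.05 and its partner Gabpb1 0.04 ± 0.10. Pprc1 was -0.51 ± 0.03, and Nrf1 (-0.08 ± 0.19) and Ppargc1a (-0.02 ± 0.22) were not called.

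Markers of cell types and of dividing cells were read on the same arrays. The counts below stand beside 25.7% of all genes called lower and 22.0% called higher. All 6 markers of dividing cells were called lower. In the Lgr5-GFP channel Ccnb1 was well above background on only 1 of 3 arrays, and the other 5 ran from -3.03 for Mki67 to -1.84 for Mcm2. All 3 stem cell markers were called lower too, from -3.41 for Lgr5 to -1.31 for Ascl2. Of 7 goblet cell markers 4 were called higher, among them Muc2 at 3.76 ± 0.58, and 1 lower, Clca1, whose Lgr5-GFP channel was well above background on only 1 of 3 arrays. All 8 epithelial markers were tested, between -0.63 and 0.43, and 2 were called lower. Only 3 of 8 immune markers passed the filter, none called, and Ptprc was among those that did not. Only 3 of 6 stromal and endothelial markers passed it, with Col1a2 called higher at 0.44 ± 0.16. The part of cell state or cell mixture in the ratios of the ribosomal protein genes was not tested.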

How the data were processed

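Per the file headers, the arrays were Agilent 2-colour arrays read with Feature Extraction 10.5.1.1, with probe positions on mm9. The labels state linear amplification of 300 ng total RNA per channel. The deposited intensity values were mean spot brightness and median local background. Per the file headers, processed intensity values were background-subtracted and dye-normalized by that software, and the deposited log10 ratio is red over green of these. The deposited series table held log2 ratios, red over green, with swapped columns not turned (r with each array's own log ratio 0.977, 0.912, 0.950 and 0.987, column medians -0.01, 0.03, -0.01 and -0.01); how it was normalized is not stated in the sources used here.

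Spots with a non-uniform local background were left out before normexp (offset 50), and spots marked as outliers after it. Global loess followed in limma 3.58.1 (R 4.3.3), with control spots at weight 0. Probes well above background on all arrays with a value in at least 1 population were kept, spots of a probe were averaged, and the brightest kept probe stood for a gene. Brightness was the mean over the arrays on which the probe had a value. The mean of an array and its swap stood for a replicate. The 2 replicate ratios were compared with 0 by lmFit and eBayes (2-sided, 1 residual and 4.42 prior degrees of freedom), with Benjamini-Hochberg adjustment over all genes. The fit was tested on simulated data whose nonzero effects were larger than the ratio of any member. That test therefore does not show how the fit performs at the size of the members' ratios.

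The members and lists were chosen with earlier results of these data known. Named members are the called ones, those nearest 0 or with the largest uncalled ratios, those next to the threshold, and some by role. Of the 124 probes, 109 matched a RefSeq accession (GRCm38.p6), 0 under another symbol. The RefSeq table gave names and promoters only.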

Additional observations from a re-analysis of the deposited data

Results flagged for a closer look

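Of the 50 members with a value on all 4 arrays, 6 had 1 array far from the other arrays by Dixon's criterion. For groups of independent values, chance meets this criterion in about 1 in 20. The members share the same 4 arrays, which are swap pairs, so the count of 6 cannot be read against that rate. In all 6 the far array was the dye swap of replicate 1, and its value was the lowest. These were Mrpl11 (-1.07, against -0.34 to -0.26 on the other arrays), Mrps15 (-0.95), Mrps16 (-0.71), Mrpl41 (-0.60), Mrpl34 (-0.47) and Mrps34 (-0.34). Of these, Mrpl11 and Mrps15 were called lower. On that array 75.3% of gene spots were marked as outliers by the scanner software; the part of this in the low values was not tested.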

How the results depend on the processing

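Across the alternatives the median of the members stayed between -0.45 (each array centred on its median) and -0.13 (without replicate 1). Calls were less stable, and the causes were not tested. With non-uniform backgrounds kept, limma called 0 genes (5169 at an unadjusted p under 0.05), 0 members lower (17 members at an unadjusted p under 0.05), 0 members higher and 0 cytosolic genes. With marked spots kept it called 3688 genes, 14 members lower and 0 higher. With dye swaps only, which leaves fewer genes to test, it called 999 genes, 2 members lower, 0 higher and 23 cytosolic genes lower. Members called higher were 1 without background subtraction, 1 with processed signals, 1 with median centring, 1 in the series table, 2 with no filter on dim probes and 2 with the mean of all kept probes. Processed signals gave 43 cytosolic genes lower.

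Leaving out 1 array moved the genes called between 977 (without replicate 1 first array) and 8433 (without replicate 1 dye swap), the members lower between 2 and 30, the members higher between 0 and 7, and the cytosolic genes lower between 24 and 68. The cytosolic median was -0.95 without background subtraction, -0.64 with processed signals, -0.17 with non-uniform backgrounds kept, -1.10 with marked spots kept, -1.13 with median centring, -0.94 in the series table, -0.97 with first arrays only, -0.70 with dye swaps only and -0.78 by the literal name rule. Leaving out 1 array gave -0.89 to -0.78 (-0.81 without replicate 2 first array), and it was -0.80 without replicate 1 and -0.88 without replicate 2.

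Mrpl15 turned to -0.053 with the mean of all kept probes, -0.55 with first arrays only, -0.54 with dye swaps only, -0.57 without replicate 1 first array, -0.52 without replicate 1 dye swap and -0.51 without replicate 1, and it was 0.28 without replicate 2. Mrpl38 turned to 0.045 with processed signals, 0.071 in the series table, 0.024 without replicate 2 first array and 0.072 without replicate 2 dye swap. In both, another probe was then the brightest or entered the mean. Brightness was averaged over the arrays with a value, so probes lacking a value on an array were ranked over different arrays. When turned, Mrpl15 was called lower with first arrays only and without replicate 1 dye swap (limma adjusted p of 0.0073 and 0.0055). It was not called with the mean of all kept probes, with dye swaps only or without replicate 1 first array. A change of probe also lay behind the values given above for Mrps6, Mrpl49 and Mrps23 with arrays left out. Mrpl50 and Mrpl45 kept their call in 15 of 16 tested alternatives, Mrps22 in 13, Mrps23 in 12, Mrpl53 in 6 and Mrpl17 in 5. With names updated through RefSeq, chosen after the data were seen, the median of 78 members was -0.24. Each array holds both populations, so its ratio already pairs them and no further replicate block was fitted. Leaving out a whole replicate leaves no residual degrees of freedom, so those values carry no test.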
